A study of Mus musculus with 9 samples.

Results

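Mitochondria in mouse corneal epithelial cells were followed here through 10 genes whose products fuse and divide the organelle. They are Mfn1, Mfn2 and Opa1 (fusion), Dnm1l, Fis1, Mff, Mief1 and Mief2 (fission), and Oma1 and Yme1l1 (proteases that cut OPA1). The genes were chosen by name and each matched 1 of the 26445 entries of the deposited table. The samples were cultures of the wild-type line iCell-0093a kept at 1%, 8% or 21% oxygen, with 3 libraries of polyadenylated RNA at each level and 9 in all. The line was of the same genotype at each level, no other treatment is labelled, and the hours spent at each oxygen level are not stated in the labels. The title of the series concerns mitophagy and mitochondrial genes in physiological and pathological hypoxia of the corneal epithelium, but which of the oxygen levels is meant by either word is left unsaid. The labels do not say whether the libraries of a level came from separate cultures, so the p-values measure the spread between these libraries, which may be technical.

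Mitochondria form a network that is joined by fusion and cut by fission. Mitofusins 1 and 2 are GTPases of the outer membrane that tether and fuse neighbouring mitochondria, and OPA1 then fuses the inner membranes and holds the cristae closed. OMA1 and YME1L1 cleave long OPA1 into short forms, OMA1 mainly under stress. For fission the dynamin-related GTPase DRP1, encoded by Dnm1l, is recruited from the cytosol by the outer membrane proteins MFF, MID51 (Mief1), MID49 (Mief2) and FIS1, and fragments cut off in this way can be removed by mitophagy. Much of this control acts on proteins, by phosphorylation, cleavage and recruitment, which RNA levels do not show.

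The transcripts of the 10 genes did not pass the test in any comparison of oxygen levels. Expression was measured as FPKM, a fragment count scaled by transcript length and by library size. Differences were tested with limma on log2(FPKM + 1) over the 11856 genes that reached 1 FPKM in 3 or more libraries, and a gene was called at a Benjamini-Hochberg adjusted p under 0.05. The 10 genes each met that filter. At 8% against 21% oxygen 0 of 10 were called, where 23.3% of the tested genes were. An unadjusted limma p under 0.05 was reached by 1 of 10 (Oma1) and by 37.99% of the tested genes. Between 1% and 21% oxygen 0 of 10 were called against 4.24% of the tested genes. There 0 of 10 had an unadjusted p under 0.05, against 23.26% of the tested genes. Between 1% and 8% oxygen 0 of 10 were again called, against 0.127% of the tested genes. At an unadjusted p under 0.05 the count was 0 of 10, against 18.95% of the tested genes. A moderated F test across the 3 levels called 0 of 10 and 16.3% of the tested genes.

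Groups whose 3 libraries do not overlap were also counted. At 8% against 21% oxygen the libraries overlapped for each of the 10 genes, while 40.9% of the tested genes did not overlap. Between 1% and 21% oxygen 1 of 10 (Mfn2, lower at 1%) did not overlap, against 28.3% of the tested genes. Between 1% and 8% oxygen 1 of 10 (Fis1, higher at 1%) did not overlap, against 33.1% of the tested genes. For 8% against 21% oxygen the 10 genes had a median log2 fold change of 0.02, beside −0.04 over all tested genes. For 1% against 21% it was −0.05, beside −0.05, and for 1% against 8% it was −0.05, beside −0.0031.

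The cells carried epithelial transcripts, while 3 of 5 corneal epithelial markers stayed below 1 FPKM in each library. Krt8 averaged 572 FPKM and Cdh1 60.2 FPKM over the 9 libraries, whereas the eye regulator Pax6 did not exceed 0.0208 FPKM, the basal regulator Trp63 did not exceed 0.836 FPKM and Krt15 did not exceed 0.116 FPKM. The other corneal markers, Aldh3a1 and Clu, averaged 3.03 and 57.2 FPKM. The mesenchymal filament gene Vim averaged 857 FPKM, and of the other stromal markers Pdgfra averaged 7.64 FPKM and Col1a1 0.583 FPKM, while Lum and Dcn stayed at or below 0.0684 FPKM. In RNA of a whole culture, fewer cells that express a gene and less of its RNA in each cell cannot be told apart. Summed over all entries a library held 330586 to 333178 FPKM at 1% oxygen, 324600 to 325832 at 8% and 317704 to 324929 at 21%. The sums at 1% thus lay above those of both other levels, and the cause was not tested. Since the values carry no read counts, the sequencing depth is unknown and precision rests on 3 libraries per level.

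**Figure D1:**
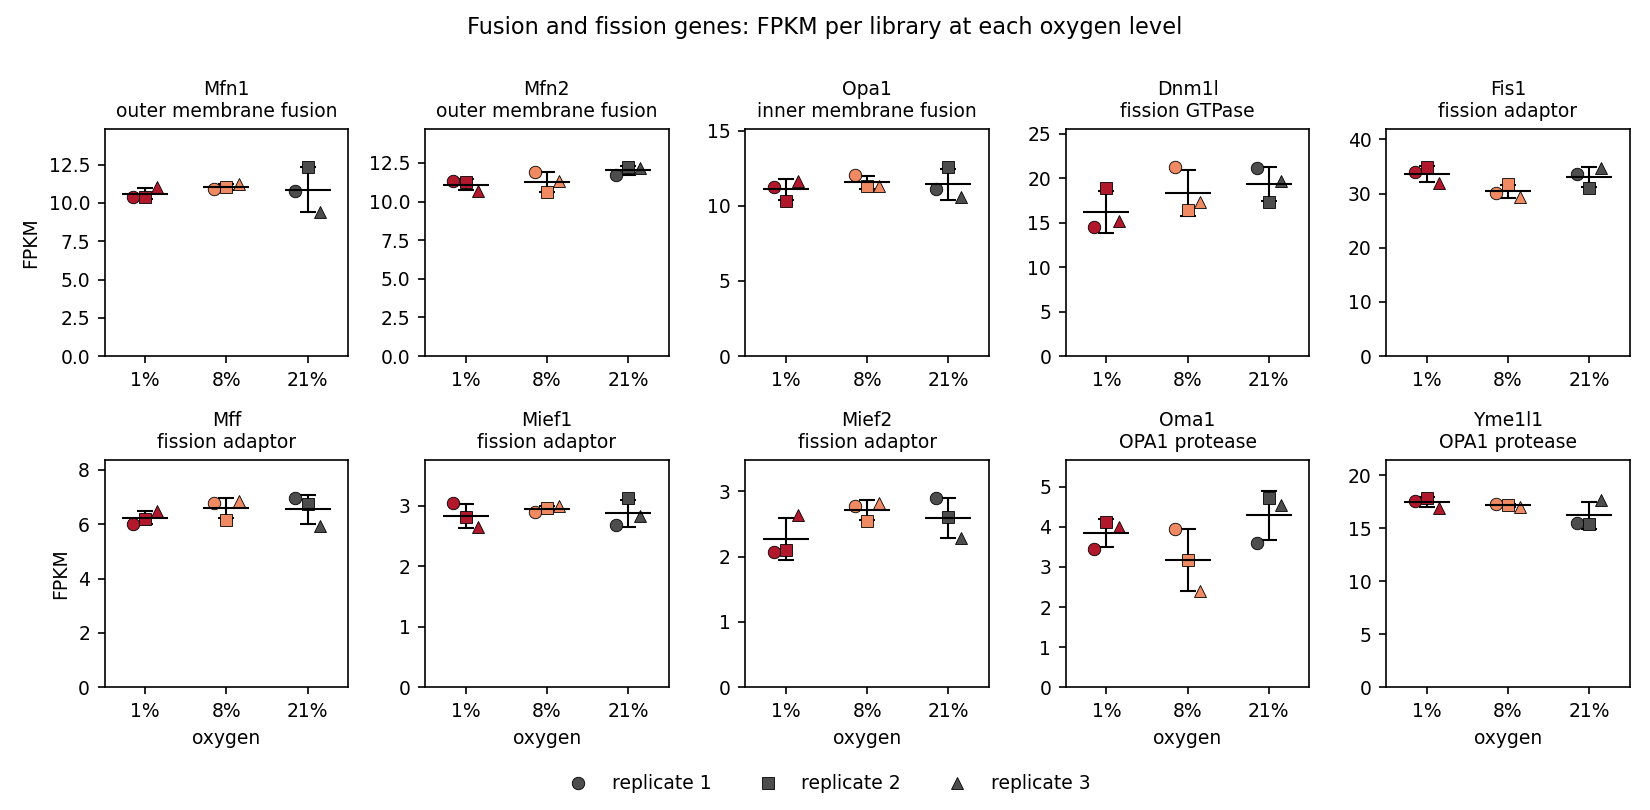
FPKM (vertical axis, from 0) of the 10 genes in each library at 1%, 8% and 21% oxygen; points are libraries with a symbol for each replicate number, horizontal bars are means and whiskers SD (n = 3). The levels overlap in most panels, with the widest scatter in Oma1, from 2.41 to 4.71 FPKM, and Dnm1l, from 14.5 to 21.3 FPKM.

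The order of the levels, compared per length, was set by Fis1 at the top. Fis1 averaged 32.4 FPKM over the 9 libraries, a mean above that of 87.3% of the tested genes. Dnm1l (18.0 FPKM) and Yme1l1 (16.9 FPKM) followed, and their ranges over the 9 libraries overlapped. Mfn2 (11.5 FPKM), Opa1 (11.4 FPKM) and Mfn1 (10.8 FPKM) came next, each with a range that overlapped its neighbour's. Mff stood alone at 6.46 FPKM. Oma1 (3.77 FPKM), Mief1 (2.89 FPKM) and Mief2 (2.52 FPKM) were lowest, each overlapping its neighbour in the order. Mief2 lay above 20.2% of the tested genes. The other adjacent pairs in this order did not overlap in any of the 9 libraries.

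Among the fusion genes, the mitofusins were present at nearly equal levels. Mfn1 (chromosome 3, 32529465 to 32579239 on GRCm38, 18 exons in its longest exon chain) had 10.4, 10.4 and 11.05 FPKM at 1% oxygen, 10.9, 11.04 and 11.3 FPKM at 8% and 10.8, 12.3 and 9.44 FPKM at 21%. The 1% and 8% libraries of Mfn1 all lay inside the span of the 21% libraries. The estimates for Mfn1 were 0.03 at 8% against 21% (SE 0.0854, 95% interval −0.16 to 0.23, adjusted p = 0.823) and −0.02 at 1% against 21% (adjusted p = 0.899).

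Mfn2 (chromosome 4, 147873599 to 147904704), which also tethers mitochondria to the endoplasmic reticulum, had 11.3, 11.3 and 10.7 FPKM at 1% oxygen, 11.9, 10.6 and 11.3 FPKM at 8% and 11.7, 12.2 and 12.2 FPKM at 21%. Each 1% library lay below each 21% library, the nearest being 11.3 FPKM at 1% and 11.7 FPKM at 21%, and the 8% libraries, from 10.6 to 11.9 FPKM, overlapped both. The mean was 11.1 ± 0.378 FPKM at 1% and 12.03 ± 0.296 FPKM at 21% (SD, n = 3), a log2 fold change of −0.11 (SE 0.0573, 95% interval −0.24 to 0.02, adjusted p = 0.302). Non-overlap alone is not a call.

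Opa1 (chromosome 16, 29579334 to 29654884, 30 exons) had 11.3, 10.3 and 11.7 FPKM at 1% oxygen, 12.1, 11.3 and 11.3 FPKM at 8% and 11.1, 12.6 and 10.6 FPKM at 21%. The 3 levels shared 1 range. The estimates for Opa1 were 0.02 at 8% against 21% (95% interval −0.15 to 0.19), −0.04 at 1% against 21% (−0.21 to 0.13) and −0.06 at 1% against 8% (−0.23 to 0.11), with adjusted p between 0.71 and 0.88. Gene-level FPKM does not separate the splice forms of Opa1, of which the annotation holds 8 transcripts, 4 of them protein-coding.

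The fission GTPase gene scattered widely within each level and passed no test. Dnm1l (chromosome 16, 16312230 to 16358959) had 14.5, 18.9 and 15.2 FPKM at 1% oxygen, 21.3, 16.4 and 17.4 FPKM at 8% and 21.1, 17.3 and 19.7 FPKM at 21%. One library at 1% oxygen, replicate 2, lay above the lowest library of each other level, so the groups overlapped. Means were 16.2 ± 2.34 FPKM at 1% oxygen, 18.4 ± 2.57 FPKM at 8% and 19.4 ± 1.903 FPKM at 21% (SD, n = 3). For Dnm1l the estimate at 1% against 21% was −0.25 (SE 0.127, 95% interval −0.54 to 0.04, adjusted p = 0.283), and it ranged from −0.36 without 1% replicate 2 (adjusted p = 0.215) to −0.18 over 17 alternative settings. An antisense gene, Gm49521, overlaps 9757 bases of the Dnm1l locus and was listed at 0.402 to 1.23 FPKM. The kit keeps strand, but with no strand setting stated for the counting, reads of this pair may not have been told apart.

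The 4 adaptors that recruit DRP1 spanned the whole range of levels in this set. Fis1 (chromosome 5, 136953275 to 136966234), a tail-anchored protein of the outer membrane, had 34.0, 34.9 and 31.9 FPKM at 1% oxygen, 30.2, 31.8 and 29.3 FPKM at 8% and 33.6, 31.0 and 34.6 FPKM at 21%. The 8% libraries of Fis1 lay below the 1% libraries without overlap and overlapped the 21% libraries. The mean was 33.6 ± 1.55 FPKM at 1% and 30.4 ± 1.25 FPKM at 8% (SD, n = 3), a log2 fold change of 0.14 (SE 0.0621, 95% interval −0.0032 to 0.28, adjusted p = 0.273). At 8% against 21% the estimate for Fis1 was −0.12 (adjusted p = 0.206), and its lowest adjusted p over the alternatives was 0.0929, without 21% replicate 2.

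Mff (chromosome 1, 82724890 to 82752394), the main DRP1 receptor in many cells, had 6.02, 6.20 and 6.50 FPKM at 1% oxygen, 6.78, 6.17 and 6.86 FPKM at 8% and 6.95, 6.74 and 5.95 FPKM at 21%. Its libraries intermingled, and the estimates of 0.01 at 8% against 21% and −0.06 at 1% against 21% had 95% intervals of −0.15 to 0.17 and −0.22 to 0.10. The Mff locus has 16 annotated transcripts, and a sense-intronic gene inside it, Gm28941, was listed at 0.472 to 1.152 FPKM.

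The paralogs encoding MID51 and MID49 were the least abundant of the fission genes. Mief1 (chromosome 15, 80234018 to 80253371) had 3.04, 2.81 and 2.64 FPKM at 1% oxygen, 2.90, 2.96 and 2.99 FPKM at 8% and 2.68, 3.12 and 2.82 FPKM at 21%. Its SD over the 9 libraries on the scale of log2(FPKM + 1) was 0.0598, smaller than in all but 2.72% of the tested genes. The added 1 shrinks the spread of a gene this low, so this rank depends in part on it. Mief2 (chromosome 11, 60728398 to 60732951) had 2.07, 2.10 and 2.63 FPKM at 1% oxygen, 2.77, 2.54 and 2.82 FPKM at 8% and 2.89, 2.61 and 2.28 FPKM at 21%. A pair of the 1% libraries of Mief2 were the lowest of the 9, and the remaining 1% library lay among the others. For Mief2 the estimate at 1% against 8% was −0.19 (SE 0.0954, 95% interval −0.40 to 0.03, adjusted p = 0.33).

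The proteases that cut OPA1 differed in spread. Oma1 (chromosome 4, 103313812 to 103371868), the stress-activated metalloprotease, had 3.45, 4.11 and 3.99 FPKM at 1% oxygen, 3.95, 3.18 and 2.41 FPKM at 8% and 3.59, 4.71 and 4.55 FPKM at 21%. Replicate 1 at 8% lay above replicate 1 at 21%, so these levels overlapped, while the other 8% libraries were the lowest of the 9. Means were 3.85 ± 0.353 FPKM at 1% oxygen, 3.18 ± 0.771 FPKM at 8% and 4.28 ± 0.605 FPKM at 21% (SD, n = 3).

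Oma1 at 8% against 21% oxygen had a log2 fold change of −0.35 (SE 0.144, unadjusted p = 0.0404, adjusted p = 0.113), the largest estimate among the 10 genes. Its 95% interval, −0.68 to −0.02, is not corrected for the number of genes. With a pseudocount of 0.1, which shrinks low values less, the estimate was −0.44 (95% interval −0.85 to −0.02, adjusted p = 0.115). Over 16 alternatives the adjusted p of Oma1 lay between 0.0563, without 8% replicate 1, and 0.302, and the estimate lay between −0.48 and −0.21. At 1% against 8% the estimate was 0.23 (95% interval −0.10 to 0.56, adjusted p = 0.415), and it was 0.09 without 8% replicate 3 and 0.36 without 8% replicate 1.

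Yme1l1 (chromosome 2, 23156369 to 23199260), the constitutive inner membrane AAA protease, had 17.6, 17.8 and 16.9 FPKM at 1% oxygen, 17.3, 17.2 and 17.0 FPKM at 8% and 15.5, 15.4 and 17.7 FPKM at 21%. In 21% replicates 1 and 2 Yme1l1 lay below each library of the other levels, and in 21% replicate 3 it lay above all but 1 of them. For Yme1l1 the estimates were 0.08 at 8% against 21% (95% interval −0.06 to 0.22, adjusted p = 0.372) and 0.10 at 1% against 21% (−0.04 to 0.24, adjusted p = 0.365). Without 21% replicate 3 they were 0.14 (adjusted p = 0.066) and 0.16 (adjusted p = 0.0741), the lowest adjusted p of this gene over 17 alternatives.

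**Figure D2:**
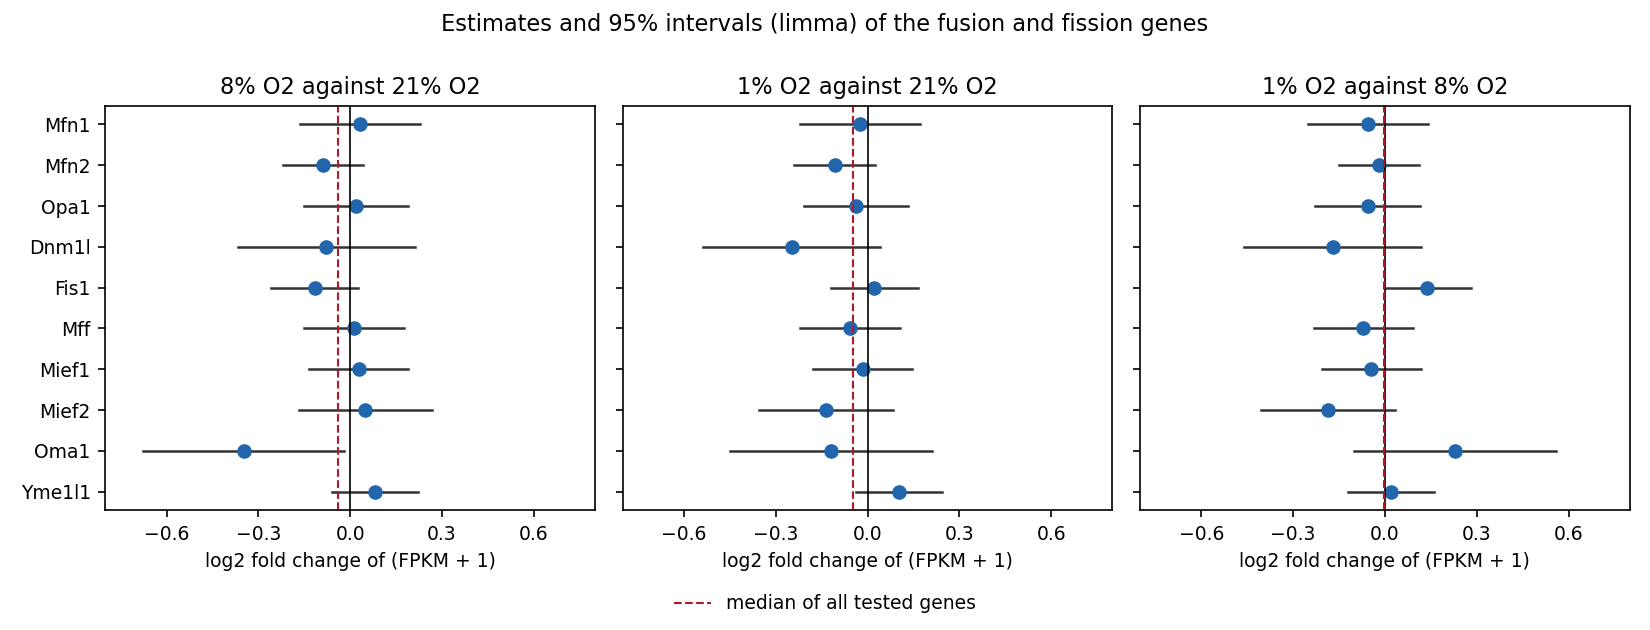
Log2 fold changes of (FPKM + 1) from limma (points) with 95% intervals (lines) for the 10 genes in each comparison, beside 0 (solid) and the median of all tested genes (dashed). All intervals cross 0 except that of Oma1 at 8% against 21% oxygen, which ran from −0.68 to −0.02.

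How large a change could have been missed is set by these intervals, since a p above the threshold does not show equal levels. For 8% against 21% oxygen the intervals of the 9 genes other than Oma1 lay between −0.37 and 0.27, that is between 0.775-fold and 1.204-fold of FPKM + 1. For 1% against 21% they lay between −0.54 (Dnm1l) and 0.24, and at 1% against 8% between −0.46 (Dnm1l) and 0.28. The intervals cover 1 gene at a time. For the genes near 3 FPKM the pseudocount of 1 narrows them. With a pseudocount of 0.1, Mief2 had an interval of −0.23 to 0.36 at 8% against 21%. At 1% against 21% it was −0.48 to 0.11. At 1% against 8% it was −0.55 to 0.04, which reaches below the −0.46 given above.

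The set as a whole was steady between libraries. On that scale 8 of the 10 genes had an SD over the 9 libraries below 0.164, the median of all tested genes. The median of the 10 genes was 0.0839. The exceptions were Dnm1l (0.186) and Oma1 (0.228). This SD depends on expression level as well as on oxygen and is given as a description.

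Ratios between genes in the same library, chosen after the values were seen, carry no test. The Mfn1 to Mfn2 ratio of FPKM was 0.958 ± 0.0676 at 1% oxygen, 0.984 ± 0.0631 at 8% and 0.903 ± 0.118 at 21% (SD, n = 3). The Opa1 to Dnm1l ratio, inner membrane fusion over fission, was 0.696 ± 0.129 at 1%, 0.636 ± 0.0621 at 8% and 0.596 ± 0.112 at 21%. In both ratios the libraries of the 3 levels overlapped. The Mief1 to Mief2 ratio was 1.27 ± 0.24 at 1%, 1.09 ± 0.063 at 8% and 1.12 ± 0.169 at 21%, and the 1% libraries overlapped the others.

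The Oma1 to Yme1l1 ratio was 0.196, 0.231 and 0.235 at 1% oxygen, 0.228, 0.185 and 0.141 at 8% and 0.231, 0.305 and 0.257 at 21%. The 8% libraries lay below the 21% libraries, with 8% replicate 1 (0.228) and 21% replicate 1 (0.231) almost level, and both overlapped the 1% libraries. It was lowest in 8% replicates 2 and 3, in which Oma1 was lowest.

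**Figure D3:**
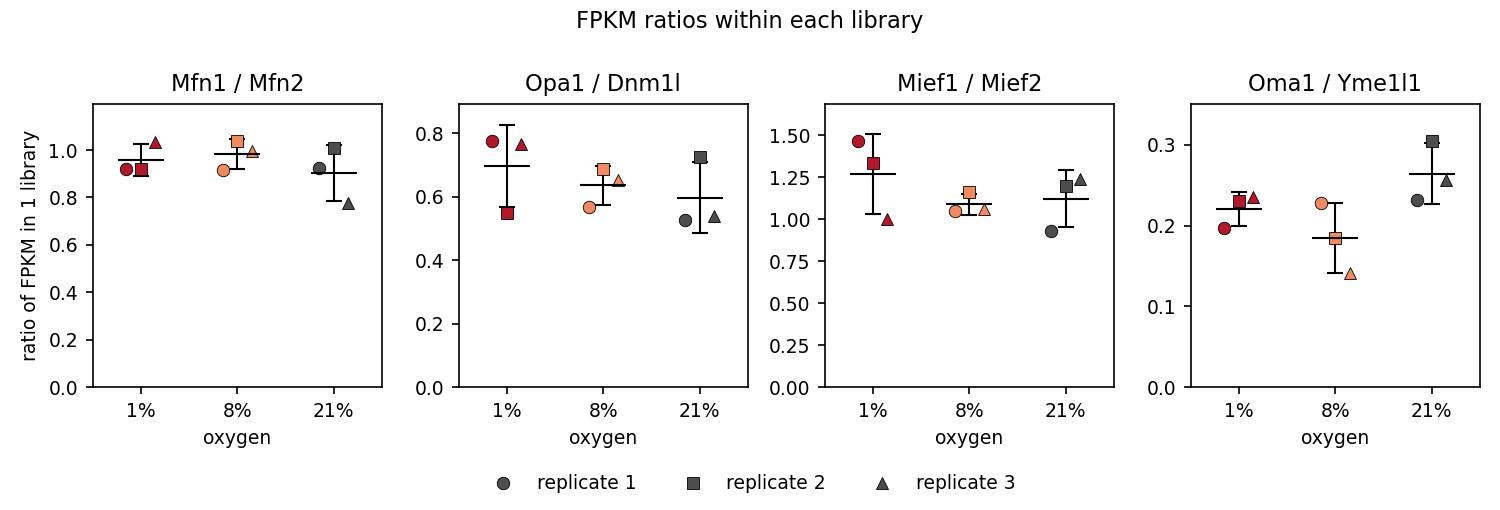
Ratios of FPKM between 2 genes of the same library (vertical axis, from 0) at 1%, 8% and 21% oxygen; points are libraries, bars means and whiskers SD (n = 3). The Oma1 to Yme1l1 ratio reaches down to 0.141 at 8% oxygen and up to 0.305 at 21%. Its 8% libraries reach up to 0.228 and its 21% libraries down to 0.231, and both overlap the 1% libraries. The other ratios overlap between all levels.

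The stretch just before each gene's start was read from RefSeq (GRCm38.p6), which held windows for the 10 genes. The window nearest to the annotated gene start was taken for each, 250 bases ending just before the RefSeq start. No gene of the set was called, so these sequences stand for what lies upstream of genes whose transcripts gave no call, and the 3 shown were picked after the values were seen. A core of the element bound by hypoxia-inducible factors (ACGTG or GCGTG, either strand) was found in 2 of 10 windows, Mfn2 and Mief2, and in 38.6% of all 32851 windows of this length. A core of the element bound by NRF1, a transcription factor of nuclear genes for mitochondria (CATGCGC, either strand), was found in 1 of 10, Opa1, and in 3.24% of all windows. An ERR core (AAGGTCA, either strand) was found in 0 of 10 and in 4.08% of all windows. A match is a description of letters and not of binding.

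The Mfn2 window (chr4:147904699-147904948, minus strand) holds 1 hypoxia-element core, starting 171 bases before the start. That of Mief2 (chr11:60728148-60728397, plus strand) holds cores starting 64, 24 and 23 bases before the start, and the last 2 are the 2 strands of 1 palindrome and overlap. Capitals mark these cores in both. In the Opa1 window (chr16:29579084-29579333, plus strand) capitals mark 3 overlapping NRF1 cores instead.
Mfn2: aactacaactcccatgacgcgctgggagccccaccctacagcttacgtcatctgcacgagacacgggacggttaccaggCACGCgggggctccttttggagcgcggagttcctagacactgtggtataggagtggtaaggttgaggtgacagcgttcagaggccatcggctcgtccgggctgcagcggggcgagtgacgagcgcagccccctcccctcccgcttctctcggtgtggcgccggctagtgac
Mief2: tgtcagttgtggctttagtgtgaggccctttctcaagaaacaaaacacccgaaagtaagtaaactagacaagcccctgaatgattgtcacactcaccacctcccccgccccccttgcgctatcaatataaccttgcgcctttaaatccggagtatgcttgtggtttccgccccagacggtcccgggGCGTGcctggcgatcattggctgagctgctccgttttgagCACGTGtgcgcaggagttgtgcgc
Opa1: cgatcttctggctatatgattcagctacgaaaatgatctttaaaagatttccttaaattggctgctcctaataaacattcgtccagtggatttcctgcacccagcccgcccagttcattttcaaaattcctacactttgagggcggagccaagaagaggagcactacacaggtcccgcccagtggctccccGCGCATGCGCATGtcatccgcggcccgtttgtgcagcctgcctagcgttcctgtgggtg
Beside these sequences stand the limma estimates at 1% against 21% oxygen: Mfn2 −0.11, Mief2 −0.14 and Opa1 −0.04, with adjusted p of 0.302, 0.435 and 0.81.

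Few stretches of these genes also occur in transcripts of other genes. Of 75-base windows of the annotated transcripts, 0 were shared with transcripts of other genes for Mfn1, Mfn2, Opa1, Fis1, Mief2 and Oma1. The share was 3.12% for Dnm1l, 1.65% for Mief1, 1.18% for Mff and 0.139% for Yme1l1. The mitofusin pair and the Mief pair shared no such window with each other.

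The genes that act around this core were read from 5 lists of 62 genes, chosen by function, of which 53 passed the filter. Between 8% and 21% oxygen 1 rose and 7 fell, 15.1% of the 53 beside 23.3% of all tested genes. Between 1% and 21% oxygen 0 rose and 2 fell, 3.77% beside 4.24%. Between 1% and 8% oxygen limma called 0 of 53, beside 0.127% of all tested genes. Stromal marker sums, nearly all of them Vim, lay between 794 and 844 FPKM at 1% oxygen, 958 and 1024 FPKM at 8% and 774 and 797 FPKM at 21%. Leukocyte marker sums, nearly all of them Cd68, lay between 32.3 and 41.5 FPKM at 1% oxygen, 42.4 and 46.7 FPKM at 8% and 19.2 and 29.8 FPKM at 21%, so that both lower levels stood above 21%, while Ptprc did not exceed 0.0101 FPKM. Kera, a sixth stromal marker, has no row in the table used here. Lum, Dcn and Ptprc were listed at 0 in some libraries. The part of these markers in the calls below was not tested.

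Inner membrane proteases and scaffolds that act with OMA1 and YME1L1 gave 0 higher and 2 lower of 11 at 8% against 21%. Of all tested genes 23.3% were called there. The median log2 fold change of the list was −0.11. Parl, the rhomboid protease that cuts PINK1 and PGAM5, had 4.88, 5.05 and 4.78 FPKM at 8% oxygen, against 7.12, 7.56 and 7.32 FPKM at 21%. Its 1% libraries had 5.18, 5.19 and 5.06 FPKM, so both lower levels lay apart from 21%. Parl fell by 0.50 at 8% (SE 0.0518, adjusted p = 0.00133) and by 0.44 at 1% oxygen (adjusted p = 0.00738), and both calls held in 17 of 17 alternatives.

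Phb, a subunit of the prohibitin ring that scaffolds inner membrane proteases, had 30.4, 29.2 and 26.2 FPKM at 8%, against 36.4, 37.3 and 34.7 FPKM at 21% (−0.33, SE 0.0799, adjusted p = 0.0222). The call of Phb was lost without 21% replicate 1 (adjusted p = 0.0618), 8% replicate 2 (0.0507) or 8% replicate 3 (0.0727). These falls stand beside Oma1 at −0.35 and Yme1l1 at 0.08 in the same comparison, neither of which passed.

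Fission partners and regulators gave 0 higher and 2 lower of 17 at 8% against 21% (median −0.08), beside 23.3% of all tested genes called. At 1% against 21% they gave 0 higher and 1 lower (median −0.06), beside 4.24% of all tested genes called. Akap1, the outer membrane anchor of protein kinase A, had 10.9, 11.5 and 10.4 FPKM at 8% oxygen, against 15.2, 15.3 and 12.8 FPKM at 21% (−0.36, SE 0.0845, adjusted p = 0.0191). Without 21% replicate 1, 8% replicate 1 or 8% replicate 3 its adjusted p was 0.0616, 0.0573 and 0.066. At 1% oxygen Akap1 had 10.03, 10.7 and 11.7 FPKM (−0.39 against 21%, adjusted p = 0.0454). That call held in 3 of 17 alternatives and was lost without any single library other than 21% replicate 3, with adjusted p up to 0.15.

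Bcl2l1, which encodes the survival protein BCL-XL, had 9.75, 10.2 and 10.4 FPKM at 8%, against 13.4, 11.5 and 13.0 FPKM at 21% (−0.30, SE 0.0671, adjusted p = 0.0174). Without 21% replicate 1 or 8% replicate 1 its adjusted p was 0.0571 and 0.0612, and it was 0.0505 in the fit to only the 6 libraries compared. At 1% oxygen its mean was 12.8 ± 0.513 FPKM, against 12.6 ± 1.02 FPKM at 21% (SD, n = 3).

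Outer membrane fusion partners and regulators, among them ubiquitin ligases and BCL2 family members, gave 0 calls of 9 in each comparison. Their medians were −0.04, −0.07 and −0.05 at 8% against 21%, 1% against 21% and 1% against 8%. Of all tested genes 23.3%, 4.24% and 0.127% were called in these comparisons. Pld6, the mitochondrial phospholipase that aids fusion, did not exceed 0.0255 FPKM and was not tested; it was singled out after its values were seen.

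Cristae-organising genes encode subunits of the MICOS complex at the crista neck and proteins associated with it. They gave 0 higher and 2 lower of 9 at 8% against 21% (median −0.06), beside 23.3% of all tested genes called. Chchd6, a MICOS subunit, had 2.43, 2.39 and 2.40 FPKM at 8% oxygen, against 4.16, 3.69 and 4.56 FPKM at 21% (−0.59, SE 0.0835, adjusted p = 0.0033). At 1% oxygen Chchd6 had 3.71, 3.80 and 3.20 FPKM, above each 8% library (0.42 against 8%, adjusted p = 0.0804). Dnajc11, a J-domain protein associated with the same complex, had 4.11, 4.16 and 3.86 FPKM at 8%, against 5.43, 5.19 and 5.13 FPKM at 21% (−0.31, SE 0.065, adjusted p = 0.0134). Both 8% calls held in 16 of 16 alternatives.

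Transport along microtubules gave 1 higher and 1 lower of 7 at 8% against 21% (median −0.06), beside 23.3% of all tested genes called. Rhot2, the outer membrane GTPase Miro2 that links mitochondria to motors, had 3.19, 3.33 and 3.37 FPKM at 8%, against 4.45, 4.22 and 5.002 FPKM at 21% (−0.37, SE 0.0908, adjusted p = 0.0228). The Rhot2 call held in 10 of 16 alternatives and was lost without 21% replicate 1 or 3 or any 8% library (adjusted p up to 0.0712) and without the filter on low values (0.0541). Kif5b, the heavy chain of kinesin 1, had 27.4, 26.4 and 26.7 FPKM at 8%, against 22.8, 24.6 and 23.8 FPKM at 21% (0.17, SE 0.0481, adjusted p = 0.0352). It held in 7 of 17 alternatives and was lost without 21% replicate 1 (adjusted p = 0.111) and without any 8% or 1% library (up to 0.112).

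**Figure D4:**
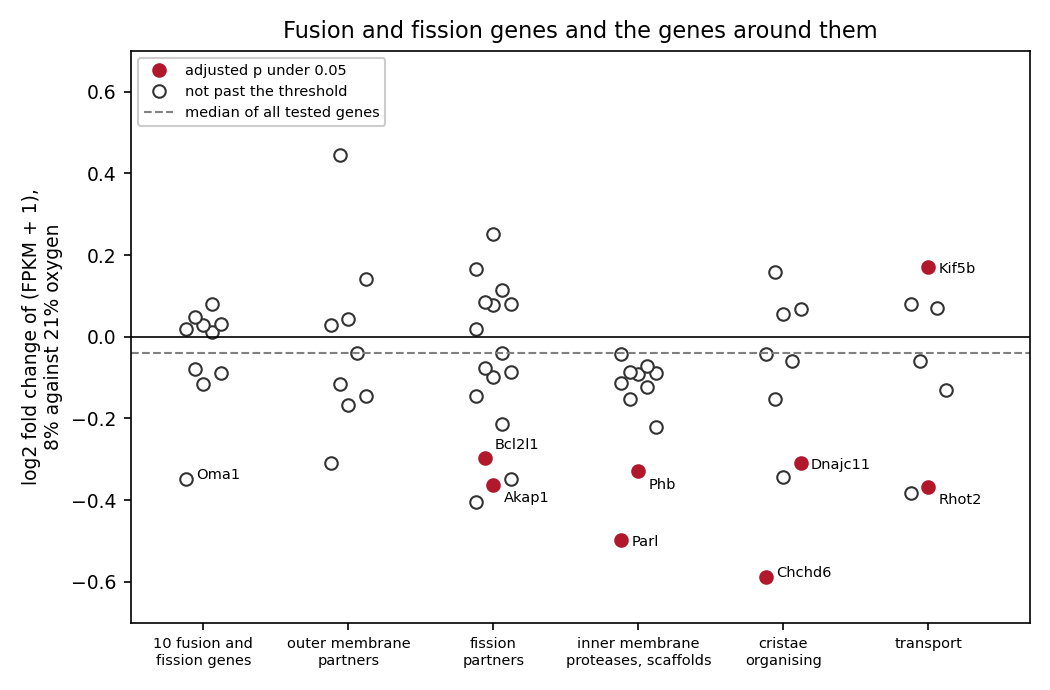
Log2 fold changes of (FPKM + 1) at 8% against 21% oxygen for the 10 fusion and fission genes and for the tested genes of the 5 surrounding lists; each point is a gene, filled where the adjusted p was under 0.05. The 8 filled points lie outside the fusion and fission set, 7 of them below 0, and the horizontal spread within a list has no meaning.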

How the data were processed

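The authors deposited 1 table of gene-level FPKM values, 1 column per library. StringTie 1.3.4d, HISAT2 2.0.4, cutadapt 1.9.1, FastQC 0.11.8 and the mm10 build are named in the submitters' processing notes, without their roles. Per the labels' protocols, RNA was taken up in TRIzol and libraries made with the TruSeq Stranded mRNA kit. No annotation release or strand setting is stated in those notes or labels. No column was left without a sample. Columns were matched to samples by title.

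The test was limma 3.58.1 in R 4.3.3 (group means of the 9 libraries, mean-variance trend, two-sided) on log2(FPKM + 1), for genes that reached 1 FPKM in 3 or more libraries, with Benjamini-Hochberg adjustment over the 11856 genes tested. This scale understates changes of genes with low FPKM. The model was tested on simulated data with known changes. Coordinates are from GENCODE M21 on GRCm38, the assembly mm10 denotes, matched by gene identifier; promoter windows are from RefSeq.

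The members and lists were chosen with earlier results of these data known. All 10 members are named, and from each other list up to 2 called genes per comparison and direction with the largest change. Nearest expression profiles were to be named for members called by the F test, and none was.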

Additional observations from a re-analysis of the deposited data

How the results depend on the processing

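No alternative called a member: 0 of 501 refits of the 30 estimates, over 17 settings per pair of levels and 16 for the F test, with a lowest adjusted p of 0.0563. Oma1, Mief1 and Mief2 average under 5 FPKM and gave no value at a mean of at least 5 FPKM. Of the 30 estimates 11 changed sign in 24 refits, none larger than 0.0642 in size after the change; the cause was not tested. For 1% against 21% oxygen median-ratio rescaling gave 0.024 for Mfn1, 0.011 for Opa1 and 0.023 for Mief1, and quantile normalization gave 0.029, 0.016 and 0.044 for these genes and 0.0049 for Mff. With each library left out in turn, estimates for 8% against 21% ranged from −0.057 to 0.12 for Mfn1, −0.029 to 0.085 for Opa1, −0.046 to 0.054 for Mff, −0.0077 to 0.074 for Mief1 and −0.015 to 0.11 for Mief2. For 1% against 21% they ranged from −0.11 to 0.064 for Mfn1, −0.086 to 0.029 for Opa1, −0.022 to 0.059 for Fis1 and −0.055 to 0.0295 for Mief1, and for 1% against 8% from −0.059 to 0.017 for Mfn2.

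Counts over all genes moved. At 8% against 21% oxygen 2765 genes were called, 1606 in the fit to only the 6 libraries compared and 1479 to 2987 with a library left out (1479 to 1806 without 21% replicate 1 or any 8% library). At 1% against 21% 503 were called, against 333 with quantile normalization, 222 without the filter, 64 in the 6 libraries and 63 (without 1% replicate 1) to 883 (without 21% replicate 3), and 351 without 8% replicate 2, the only library whose loss moved it by less than 1.5 times. At 1% against 8% 15 were called, against 4 without the filter, 56 at a mean of at least 5 FPKM, 484 in the 6 libraries and 1 (without 8% replicate 3) to 435 (without 21% replicate 3). The F test called 1928, 1105 without the filter and 771 to 2251 with a library left out (771 to 1170 without 21% replicate 1, 1% replicate 1 or 2 or any 8% library). Replicate numbers are shared between levels, and the labels do not say whether equal numbers share a culture or batch. Of 9 same-numbered pairs 0 deviated together with a correlation over 0.1 (−0.303 to 0.095). Of 9 libraries 2 correlated best with their own number. With 3 libraries per level these correlations cannot decide whether equal numbers were paired. With the replicate block 72, 1 and 756 genes were called at 1% against 21%, 1% against 8% and by the F test, and 0 members in any comparison. Depth is unknown, so counting error could not be set apart from other spread.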

Other observations

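A short protein-coding gene (ENSMUSG00000115798) lies on the same strand inside the Mief1 locus and shares 213 bases with it. It had 4.64, 6.06 and 5.18 FPKM at 1% oxygen, 5.30, 4.70 and 8e-06 FPKM at 8% and 6.98, 6.44 and 6.55 FPKM at 21%. The 8% replicate 3 value is near 0 while Mief1 stood at 2.99 FPKM in the same library. At 8% against 21% oxygen the groups did not overlap and the log2 fold change was −1.21 (95% interval −2.59 to 0.16, limma adjusted p = 0.175). Without 8% replicate 3, a setting chosen after seeing the data, it was −0.35 (95% interval −0.60 to −0.11, limma adjusted p = 0.0674), so the size of the estimate rests on that library. At 1% against 21% oxygen the groups did not overlap and the log2 fold change was −0.29 (95% interval −1.66 to 1.09, limma adjusted p = 0.818), in a model whose spread includes that library. Without it the estimate was again −0.29 (95% interval −0.51 to −0.07, limma adjusted p = 0.136). This gene was singled out after its values were seen. Transcripts of this gene and of Mief1 share 139 windows of 75 bases, which is every such window that a run of 213 bases holds. No 75-base stretch of this gene is therefore its own, and reads there could come from either. The notes and labels do not state how reads shared by both genes were divided. A change of this gene and a change in that division cannot be told apart in its FPKM and fold changes.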
